A study of Homo sapiens with 3 samples.

Results

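Described here are 10 long noncoding RNA genes of TE5, an established line of esophageal squamous carcinoma cells, with or without knockdown of KLF5, a zinc finger transcription factor of epithelia. The genes were chosen by name: MIR205HG and MIR31HG, which host microRNAs; the nuclear RNAs MALAT1 and NEAT1; the imprinted RNA H19; and GAS5, SNHG1, SNHG12, ZFAS1 and EPB41L4A-AS1, which host small nucleolar RNAs (snoRNAs) in their introns. They are 10 of 52992 genes summed from the deposited tables, with 105 of 181857 matched transcripts. The cells had been transfected with a scrambled control (1 library) or with shKLF5, a short hairpin RNA against KLF5 (2 libraries, numbered 1 and 2), and were collected at 48 h. Nothing in the labels tells if libraries 1 and 2 came from different hairpins or cultures, so p-values measure the spread between these libraries only, which may be technical, and scramble has no replicate.

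As background, MIR205HG is the precursor of miR-205, a microRNA of basal and squamous epithelia that represses the mesenchymal factors ZEB1 and ZEB2, and MIR31HG overlaps the gene of miR-31, another microRNA abundant in keratinocytes. NEAT1 is the scaffold of paraspeckles, nuclear bodies that need its long form, and MALAT1 is concentrated in nuclear speckles, where splicing factors collect. H19 is made from the maternal allele of the locus that makes insulin-like growth factor IGF2 from the paternal allele. The snoRNA hosts are spliced so that the introns release guide RNAs for the modification of ribosomal and spliceosomal RNA. Their spliced exons are commonly removed by nonsense-mediated decay, which depends on translation, and many of these genes start with the pyrimidine tract of TOP mRNAs, a class that includes the ribosomal protein mRNAs.

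The microRNAs that 3 of these RNAs can release are shown because the host is read here in their place: the libraries measured long RNA. RefSeq (GRCh38.p14) places miR-205-5p at chr1:209432166-209432187 on the plus strand, miR-31-5p at chr9:21512158-21512178 on the minus strand and miR-675-5p, from H19, at chr11:1996800-1996822 on the minus strand. Capitals mark the seed, bases 2 to 8, which pairs with target RNAs.
miR-205-5p: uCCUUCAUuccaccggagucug
miR-31-5p: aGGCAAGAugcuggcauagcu
miR-675-5p: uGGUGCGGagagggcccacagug
The 3 seeds differ from each other. Among the 2545 mature microRNAs of that RefSeq table, the miR-205-5p and miR-31-5p seeds occur in no other entry, and the miR-675-5p seed is shared with miR-4466. The hairpin of miR-205 itself was assigned 33 counts in scramble against 31 and 18 in shKLF5 libraries 1 and 2, that of miR-31 had 1, 0 and 1, and that of miR-675 had 0 in each library. These are reads from long precursors at most and say nothing of the mature microRNAs.

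The starts of the 5 snoRNA hosts are shown as well, since TOP tracts sit there. Each line gives the 20 bases before and the 30 from the RefSeq start on the gene's own strand, with capitals on a C followed by at least 4 pyrimidines that begins within 10 bases of the start.
SNHG12, chr1:28581844-28581893, minus strand: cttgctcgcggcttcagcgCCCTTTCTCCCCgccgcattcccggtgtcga
ZFAS1, chr20:49278622-49278671, plus strand: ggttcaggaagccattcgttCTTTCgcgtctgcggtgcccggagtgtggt
SNHG1, chr11:62855856-62855905, minus strand: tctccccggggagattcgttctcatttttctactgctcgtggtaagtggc
GAS5, chr1:173869016-173869065, minus strand: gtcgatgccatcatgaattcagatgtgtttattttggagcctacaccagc
EPB41L4A-AS1, chr5:112160506-112160555, plus strand: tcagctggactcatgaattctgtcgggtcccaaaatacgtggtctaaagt
By this rule SNHG12 and ZFAS1 have a tract and the windows of SNHG1, GAS5 and EPB41L4A-AS1 hold none, at starts that are annotated and were not measured. The RefSeq start of GAS5 lies upstream of the GENCODE 29 gene, and those of SNHG12, ZFAS1 and SNHG1 lie inside theirs, so other starts are annotated for each of these. The tract was found for 5 of the 9 members with a RefSeq promoter entry (MALAT1, MIR205HG and MIR31HG besides those named), for 33.5% of all 35116 promoters of that length and for 81.1% of 74 ribosomal protein promoters. Here and below a member counts if any of its entries holds the sequence, while the shares of promoters are per entry. MALAT1 has a further entry that holds no tract. In the whole windows, from 250 bases before the start to 50 after it and on both strands, CCCCGCCC, a GC box of the kind KLF and SP factors bind, was found in MALAT1, SNHG1 and ZFAS1, 3 of 9 members, against 22.8% of all promoters. GGGTGGGG (a CACC box), TGANTCA (the AP-1 motif) and CACGTG (an E-box) were found in 0 of 9 members, against 11.1%, 7.71% and 7.26% of all promoters.

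Totals were 33448976, 33544752 and 32720563 estimated counts in scramble and shKLF5 libraries 1 and 2, with 38.1%, 31.1% and 34.7% from the mitochondrial chromosome. KLF5, the target of the hairpins, had 8402 counts in scramble against 1333 and 1531. The 8 markers of TE5 and squamous epithelium, KLF5 among them, ran from 659 counts (KRT14) to 142684 (KRT5) in scramble, and 7 of them lay below scramble in libraries 1 and 2, while SOX2 in library 1 was level with it after TMM scaling (219.8 against 221.9 CPM) and above it in TPM (113.0 against 81.5). Markers of other cell types were low but not absent: the summed level of 5 fibroblast markers was 16.7, 26 and 15 TPM, most of it COL1A1, that of 5 leukocyte markers 4.1, 9.69 and 12.4 TPM, most of it CD68, that of 2 endothelial markers 0.324, 1.05 and 1.35 TPM, and that of 4 glandular markers 0.0, 0.0947 and 0.0822 TPM, in the order scramble, library 1, library 2. No leukocyte or endothelial marker listed was at 0 in the shKLF5 libraries, while 2 of the 5 and 1 of the 2 were at 0 in scramble. Those at 0 had few counts in libraries 1 and 2: LYZ had 6 and 5, CD3E 3 and 7, and CDH5 14 and 10. Fewer genes of any kind were above 0 in scramble: a gene at 0 TPM had rank 26955 there, against 32235 and 31691. The part of markers of other cell types in the results below was not tested.

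Compared per length, NEAT1 was the most abundant of the 10 and H19 and MIR31HG the least. TPM (a level corrected for transcript length and scaled within each library) of NEAT1 was 706 in scramble, 504 in shKLF5 library 1 and 835 in library 2, which ranks it 59th, 99th and 39th among all genes. The NEAT1 values rest on deposited lengths of its short transcripts that are below those of GENCODE 29, as given below. GAS5 and SNHG1 followed NEAT1 in each of the 3 libraries. Below them MIR205HG, at 140.5 TPM in scramble, MALAT1, at 122.9, and ZFAS1, at 43.4, changed places between libraries. MIR205HG stood above MALAT1 in scramble and level with it in library 1 (120.1 against 120.5 TPM), and in library 2 MIR205HG, at 59.3 TPM, lay below both MALAT1, at 107.4, and ZFAS1, at 104.8. SNHG12 lay at 24.7, 26.3 and 28.4 TPM. H19 stood above MIR31HG in scramble, at 6.21 against 3.88 TPM, and below it in both shKLF5 libraries.

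**Figure D1:**
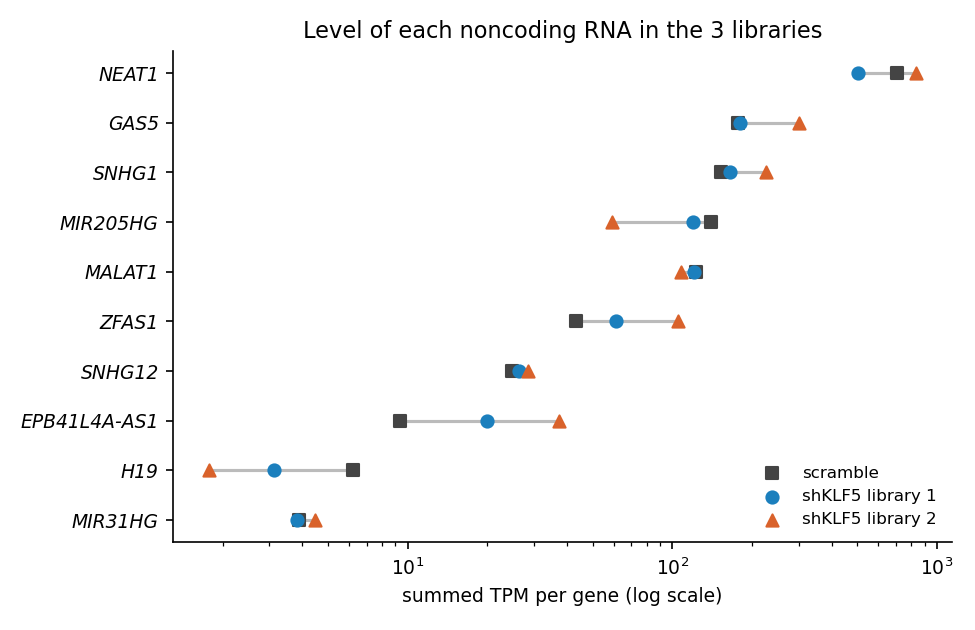
Summed TPM of each of the 10 genes (log axis) in scramble (squares), shKLF5 library 1 (circles) and shKLF5 library 2 (triangles), joined by a grey line from lowest to highest. NEAT1 lies at the top of the range in every library, and for MIR205HG and H19 both shKLF5 points lie to the left of scramble while for ZFAS1 and EPB41L4A-AS1 both lie to the right.

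No member passed the test of shKLF5 against scramble, and neither did any other gene. With edgeR's quasi-likelihood test and Benjamini-Hochberg adjustment 0 of the 10 members and 0 of 20629 genes tested were called (0.0%). Without adjustment, p was under 0.05 for 2 members, H19 and MIR205HG, both lower, where 9.18% of all genes had such a p 3.5% had it on the lower side and 5.68% on the higher. DESeq2 called 116 genes (0.562%), edgeR's older form of the fit 21 (0.102%) and a fit without mitochondrial genes 2 (0.00977%), none of them a member. By value 6 of the 10 lay below scramble in each shKLF5 library, 0 lay above it in both and 4 lay on opposite sides, where the shares over all genes were 36.5% lower and 37.9% higher. All 10 passed the filter on low counts. The members are mostly abundant, and among genes with a mean of at least 5 CPM (counts relative to library size, here after TMM scaling) 50.8% were lower in both. The 6 of 10 is near that share, but the sets differ: H19 and MIR31HG, both among the 6, had a mean under 5 CPM. The median log2 fold change of the 10 was -0.37, beside 0.04 for all genes tested and -0.16 for the genes at 5 CPM or more.

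**Figure D2:**
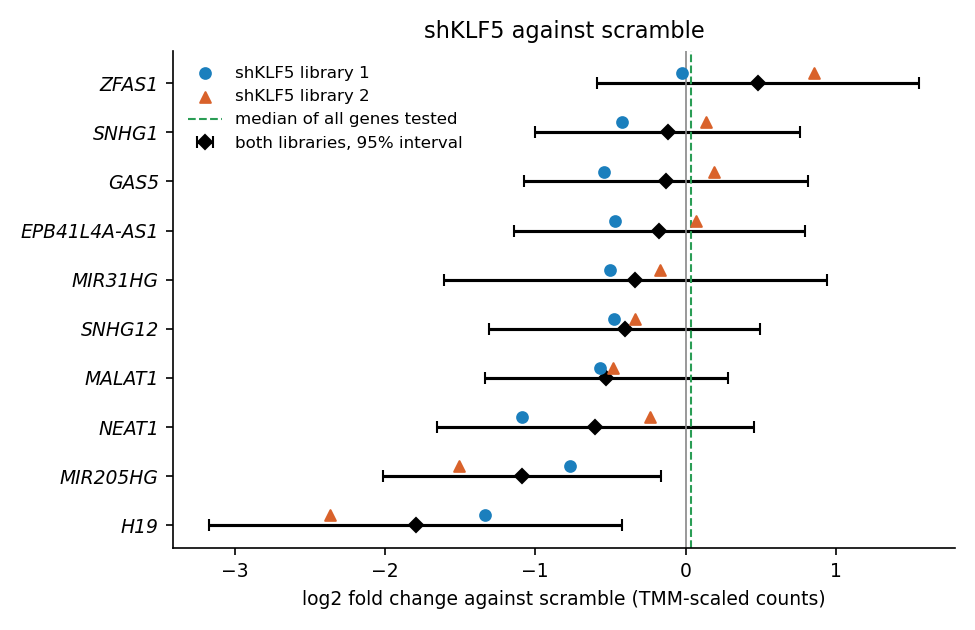
Log2 fold change of each gene in shKLF5 against scramble on TMM-scaled counts: diamonds with bars are the fit to both shKLF5 libraries with its 95% confidence interval, circles and triangles are libraries 1 and 2 alone, and the dashed line is the median of all genes tested. The intervals of H19 and MIR205HG lie below 0 before adjustment for the number of genes, and those of the other 8 genes include 0.

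MIR205HG (ENSG00000230937; GRCh38 chromosome 1, 209428820 to 209432838, plus strand), the miR-205 precursor, stood below scramble in libraries 1 and 2 alike. Its counts were 3993 in scramble against 3162 and 1839, or 150.2 CPM against 88.2 and 52.9. The shKLF5 mean was 70.6 ± 25 CPM (SD, n = 2), and both libraries lay below scramble, 1.70-fold in library 1 and 2.84-fold in library 2. The log2 fold change was -1.09 (SE 0.40, interval -2.01 to -0.17). Its adjusted p was 0.482 in edgeR's quasi-likelihood test and ran from 0.407 to 0.892 over the alternatives tried. Its direction was the same under each scaling: the log2 fold change ran from -1.13 to -0.66 over 11 fits. In bulk RNA, fewer cells that make an RNA and less of it in each cell cannot be told apart.

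Of the 10 transcripts of MIR205HG, 8 had fewer counts than scramble in each shKLF5 library; the exceptions are MIR205HG-204 and MIR205HG-210. MIR205HG-205, 3348 bases long and annotated as a retained intron, had 1628.2 counts in scramble against 1129.8 and 723.0. MIR205HG-203 had 649.9, 503.2 and 356.2 counts and MIR205HG-206 had 240.5, 85.2 and 18.9. MIR205HG-204 had 354.8, 554.9 and 285.2 counts. The share of MIR205HG counts in its 4 retained intron transcripts was 56.0% in scramble, 52.2% in library 1 and 56.6% in library 2, so the level changed by value and the balance between these classes moved by few points and in opposite directions. A neighbour on the same chromosome, CAMK1G, a calmodulin-dependent kinase, had 22, 33 and 38 counts.

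MIR31HG (ENSG00000171889; chromosome 9, 21455642 to 21559669, minus strand), the host of miR-31, was scarce and differed little between the libraries. Its single deposited transcript had 70 counts in scramble against 66 and 81, that is 2.63 CPM against 2.09 ± 0.34 (SD, n = 2). The log2 fold change was -0.34 with an interval from -1.61 to 0.94, so at this depth a level 2-fold lower is within it, and the value turned to 0.09 under library size alone. IFNE, an epithelial interferon gene on the same strand within its span, had 21, 29 and 27 counts, and MTAP, the neighbouring methylthioadenosine phosphorylase, had 2321, 2276 and 1614 counts, with a log2 fold change of -0.67 (SE 0.37).

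H19 (ENSG00000130600; chromosome 11, 1995176 to 2001470, minus strand) had the lowest fold change of the members. Its counts were 141 in scramble against 74 and 34, or 5.30 CPM against 2.06 and 0.978. The shKLF5 mean was 1.52 ± 0.77 CPM (SD, n = 2), so that both libraries lay below scramble, 2.52-fold in library 1 and 5.16-fold in library 2. It was the only member at least 2-fold lower in both, where 2.24% of all genes were. The log2 fold change was -1.80 (SE 0.59, interval -3.17 to -0.42). Its adjusted p was 0.474 in edgeR's quasi-likelihood test, with 0.331 to 0.643 over the alternatives, and the log2 fold change ran from -1.84 to -1.09 over the 10 fits that kept it. The counts are few and are divided among 11 transcripts, of which H19-210 had 37.4, 11.7 and 5.5 counts.

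IGF2, the growth factor gene that shares enhancers with H19, moved by value in the same direction. Its counts were 904 in scramble against 489 and 252, and the log2 fold change of IGF2 was -1.70 (SE 0.47). In libraries 1 and 2 alone the log2 values of IGF2 were -1.31 and -2.22, beside -1.33 and -2.37 for H19. IGF2 had an adjusted p of 0.474 in edgeR's quasi-likelihood test. Both sets of values rest on the same scramble library. MRPL23, a mitochondrial ribosomal protein gene next to H19, had 783, 852 and 683 counts, with a log2 fold change of -0.44 (SE 0.39). Of 13 imprinted genes listed, IGF2 included, 7 were tested: 2 were lower in both libraries after TMM scaling (NNAT, named because the count is small, with 63, 76 and 80 counts, besides IGF2), 3 lay above scramble in both and 2 on opposite sides. Those higher in both were CDKN1C, an inhibitor of the cell cycle, with 17, 73 and 81 counts, IGF2R, the receptor that clears IGF2, with 8536, 15704 and 16108, and PEG10, a gene of retroviral origin, with 1, 9 and 10.

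NEAT1 (ENSG00000245532; chromosome 11, 65422774 to 65445540, plus strand) had the highest counts of the 10 and a wide gap between the shKLF5 libraries. Its counts were 61298 in scramble against 38818 and 68116, or 2306 CPM against 1083 and 1959. The shKLF5 mean was 1521 ± 619 CPM (SD, n = 2), with library 1 at less than the scramble level by 2.13-fold and library 2 by 1.18-fold. The log2 fold change was -0.60 (SE 0.46, interval -1.66 to 0.46), and the difference between the shKLF5 libraries, 0.85 on the log2 scale, was larger than that. In TPM, which carries no TMM scaling, library 2 lay above scramble, at 835 against 706.

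The long form that builds paraspeckles could be followed apart from the short ones only as an estimate, since the short forms lie within it. NEAT1-202, 22743 bases long, took 50.7% of NEAT1 counts in scramble (Wilson 95% interval 50.3 to 51.1), 46.3% in library 1 (45.8 to 46.8) and 47.0% in library 2 (46.6 to 47.4). Per length it was the minority, with 44.4, 26.7 and 45.6 TPM against 661.7, 477.6 and 789.8 TPM for the 2 short transcripts together. By TPM the shares of NEAT1-202 were 6.29%, 5.3% and 5.46%. These values rest on the deposited lengths of the short transcripts, 1745 bases for NEAT1-201 and 1457 for NEAT1-203. In GENCODE 29 they are 3441 and 3524 bases long, which would give the short transcripts a lower level per length. Intervals of this kind cover counting error only, since the reads carry no molecular identifiers. Of 18 genes for paraspeckle proteins, 15 lay below scramble in both libraries, 0 above it in both and 0 were called, and the median log2 fold change was -0.42. An example is SFPQ, a core paraspeckle protein needed to keep NEAT1, at -0.63 (SE 0.34). The median of the 18 genes was 0.01 under library size alone, where the median of all genes was 0.47. After TMM scaling, 36.5% of all genes tested were lower in both libraries, with a median of 0.04. Of genes with a mean of at least 5 CPM, 50.8% were, with a median of -0.16.

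MALAT1 (ENSG00000251562; chromosome 11, 65497688 to 65506516, plus strand), downstream of NEAT1 on the same strand, had closely matching shKLF5 libraries. Its counts were 20524 in scramble against 18605 and 19162, that is 772.0 CPM against 535 ± 22.6 (SD, n = 2). Both libraries lay below scramble, 1.49-fold and 1.40-fold. The log2 fold change was -0.53 (SE 0.35, interval -1.34 to 0.28), its adjusted p by edgeR's quasi-likelihood test was 0.666, and the value shrank to -0.10 under library size alone. The full-length transcript, MALAT1-202, 8708 bases long, had 10482.3, 7353.4 and 9905.9 counts. A shorter one, MALAT1-203, had 9708.0, 11046.7 and 9159.1, so library 1 had fewer reads on the first and more on the second. MALAT1-203 is 4585 bases long in the deposited tables and 480 in GENCODE 29, and reads common to both transcripts are divided by the estimation. FRMD8, a protein-coding neighbour of this region, had a log2 fold change of 0.36 (SE 0.36).

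The 5 snoRNA hosts were alike in their gene totals in that none had an interval that left out 0. They were also alike in that all 5 stood higher in library 2 than in library 1. So did 50.2% of all genes and 59.2% of the long noncoding genes tested. GAS5 (ENSG00000234741; chromosome 1, 173863900 to 173868882, minus strand), whose span holds 11 snoRNA genes in RefSeq and whose RNA accumulates when growth stops, had 3507 counts in scramble against 3237 and 5232. That is 131.9 CPM against 90.3 and 150.5, below scramble in library 1 and above it in library 2. SNHG1 (ENSG00000255717; chromosome 11, 62851988 to 62855914, minus strand), with 9 snoRNA genes in its span, had 3825, 3836 and 5487 counts, or 143.9 CPM against 107.1 and 157.8. It, too, lay on opposite sides of scramble in the 2 libraries. The log2 fold change was -0.13 (SE 0.41) for GAS5 and -0.12 (SE 0.38) for SNHG1, and both turned positive under library size alone, to 0.30 and 0.31.

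SNHG12 (ENSG00000197989; chromosome 1, 28578538 to 28583132, minus strand), with 4 snoRNA genes in RefSeq, had 637 counts in scramble against 616 and 660, that is 24.0 CPM against 18.1 ± 1.27 (SD, n = 2). Both libraries lay below scramble by that scale, and the log2 fold change was -0.41 (SE 0.39), which became 0.02 under library size alone. ZFAS1 (ENSG00000177410; chromosome 20, 49278178 to 49295738, plus strand), host of SNORD12, SNORD12B and SNORD12C, had 757, 1004 and 1791 counts, or 28.5 CPM against 28.02 in library 1 and 51.5 in library 2. Library 1 was thus at the scramble level and library 2 was 1.81-fold above it, with a log2 fold change of 0.48 (SE 0.46, interval -0.59 to 1.55). EPB41L4A-AS1 (ENSG00000224032; chromosome 5, 112160526 to 112164276, plus strand), host of SNORA13, had 643, 626 and 883 counts, or 24.2 CPM against 17.5 and 25.4. Its log2 fold change was -0.17 (SE 0.42) by counts. In length-scaled counts it was 1.16, with an adjusted p of 0.610 in edgeR's quasi-likelihood test (0.520 to 0.999 over the alternatives), and its transcripts differed in length between the libraries, as given below. No source used here gives the use of strand, and 4 of these 5 overlap a protein-coding gene on the other strand. ZNFX1, across from ZFAS1, had 946, 1628 and 1934 counts, EPB41L4A had 407, 661 and 377, ZBTB37, across from GAS5, had 288, 574 and 381, and TRNAU1AP, across from SNHG12, had 196, 242 and 241. Reads of the 2 strands cannot be told apart without it. SLC3A2, the amino acid transporter subunit next to SNHG1, had 29329, 29703 and 17508 counts and did not share the higher level of SNHG1 in library 2.

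In GAS5 and SNHG12 the estimated share of reads in retained intron transcripts was lower in each shKLF5 library than in the control. In SNHG1 it was lower in library 2. For EPB41L4A-AS1 another measure, the share in the longest transcript, was lower in each shKLF5 library, as it was for NEAT1 above. In GAS5 the 19 transcripts annotated as retained intron held 77.4% of counts in scramble (Wilson 95% interval 76.0 to 78.8), 66.1% in library 1 (64.5 to 67.7) and 50.7% in library 2 (49.3 to 52.0). In SNHG12 the share was 83.8% (80.8 to 86.5), 77.0% (73.5 to 80.1) and 68.8% (65.1 to 72.2). In SNHG1 it was 72.2% (70.7 to 73.6), 71.5% (70.1 to 72.9) and 55.03% (53.7 to 56.4), so that library 1 lay within the counting error of scramble and library 2 did not. By TPM the SNHG1 share was 72.8%, 73.5% and 57.1%, above scramble in library 1. In EPB41L4A-AS1 the 2969-base transcript EPB41L4A-AS1-201 held 93.8% (91.6 to 95.4), 81.1% (77.7 to 83.9) and 69.1% (66.0 to 72.0). ZFAS1 has no retained intron transcript in the annotation. These intervals do not cover the uncertainty of dividing reads among transcripts, and with 1 scramble library the difference has no replicate check.

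**Figure D3:**
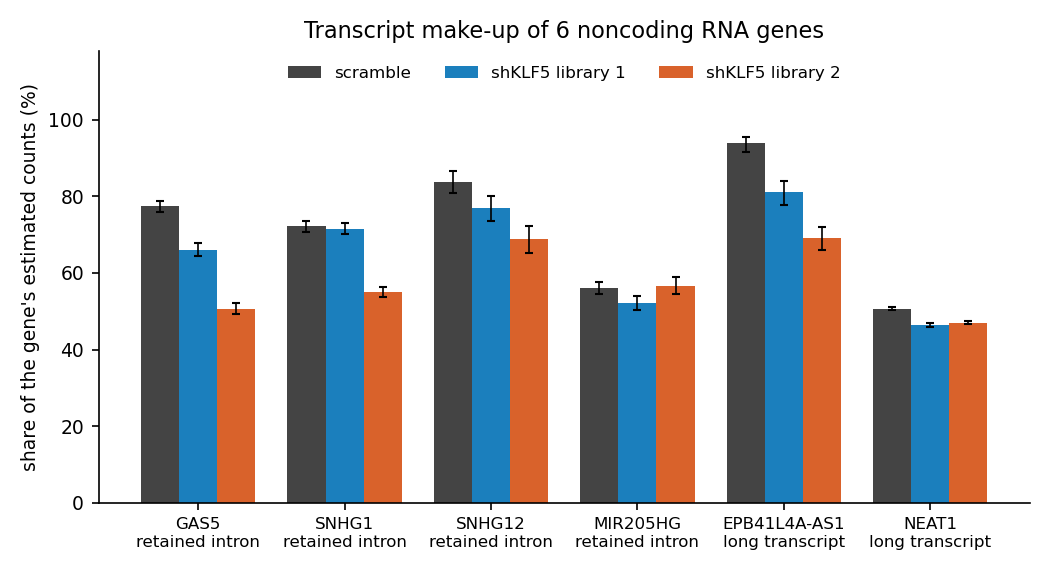
Share of each gene's estimated counts in transcripts annotated as retained intron (GAS5, SNHG1, SNHG12, MIR205HG) or in the longest transcript (EPB41L4A-AS1, NEAT1), with bars for scramble, shKLF5 library 1 and library 2 and error bars of the Wilson 95% interval. The bars of GAS5 run from 77.4% to 50.7% and those of EPB41L4A-AS1 from 93.8% to 69.1%, while those of MIR205HG stay between 52.2% and 56.6%.

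Summed over each class on the TMM scale, the other transcripts of these hosts stood above scramble in library 2, and the intron-retaining or long ones stood below it in both libraries. The other GAS5 transcripts summed to 792 counts in scramble against 1098 and 2580, and the retained intron ones to 2715, 2140 and 2652. On the log2 scale after TMM scaling, the other transcripts of GAS5 stood at 0.04 in library 1 and 1.32 in library 2 against scramble, and retained intron GAS5 at -0.77 and -0.42. GAS5-221, of 632 bases and not in that class, had 495.4, 687.6 and 1760.0 counts, and GAS5-210, a retained intron transcript of 1698 bases, had 700.3, 531.4 and 505.1. Not every retained intron transcript was lower: GAS5-201 had 543.4, 526.7 and 807.8 counts, and SNHG1-201 had 1080.2, 1455.7 and 1743.6. The other transcripts of SNHG1 stood at -0.39 and 0.83 and those of SNHG12 at 0.02 and 0.60, and the retained intron ones at -0.44 and -0.26 and at -0.60 and -0.62. The short transcripts of EPB41L4A-AS1 stood at 1.14 and 2.39: EPB41L4A-AS1-203 had 21.9, 78.3 and 196.9 counts and EPB41L4A-AS1-204, of 292 bases, had 1.1, 29.6 and 63.0, while EPB41L4A-AS1-201 had 603.3, 507.4 and 609.6. In ZFAS1, ZFAS1-202 had 60.6, 118.3 and 427.4 counts and ZFAS1-201 had 56.9, 109.6 and 233.4, both above scramble in both libraries. ZFAS1-206 had 164.9, 238.0 and 218.3.

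**Figure D4:**
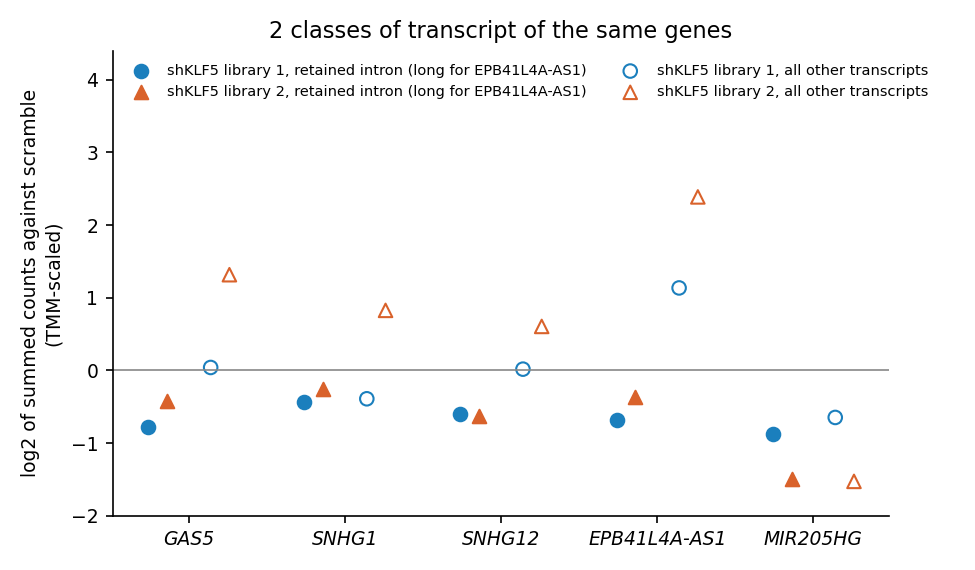
Log2 ratio of summed counts to scramble after TMM scaling for 2 classes of transcript of 5 genes: filled symbols are retained intron transcripts (the long transcript for EPB41L4A-AS1), open symbols all other transcripts, circles shKLF5 library 1 and triangles library 2. For GAS5, SNHG12 and EPB41L4A-AS1 the open symbols of each library lie above the filled ones, for SNHG1 clearly so in library 2 (0.83 against -0.26), and for MIR205HG the classes lie together.

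Over all genes the share of retained intron transcripts was not lower in the shKLF5 libraries: they took 6.37%, 6.57% and 8.13% of the nuclear-encoded counts. Of 6300 other genes with at least 100 counts in each library and transcripts of both classes, 21.6% had a lower retained intron share in both shKLF5 libraries and 2.78% had it lower by at least 5 points in both, as GAS5 and SNHG12 did. Among 53 other long noncoding genes these shares were 35.8% and 7.55%, and among 10 other snoRNA host genes 60.0% and 30%. The 3 hosts behind that last share, named after their values were seen, are SNHG6 with 30.7%, 22.6% and 12.1%, SNHG17 with 61.0%, 47.1% and 46.1%, and TAF1D with 54.0%, 48.3% and 48.2%. SNHG3 went the other way, with 29.5%, 34.6% and 44.2%, and so did CWF19L1, with 2.97%, 10.1% and 6.91%. These backgrounds are not matched on the starting share. The median retained intron share in scramble was 4.9% for the 6300 genes, and a share under 5% cannot fall by 5 points. It was 35.0% for the 53 long noncoding genes and 30.9% for the 10 hosts, against 77.4% for GAS5 and 83.8% for SNHG12. Whether the hosts differ from other genes was not tested, and the number of genes in the list is small. The longest-transcript shares of EPB41L4A-AS1 and NEAT1 have no such background here.

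Between the 2 shKLF5 libraries, 4 of the 5 snoRNA hosts stood higher in library 2 by more than the upper quartile of all genes, which was 0.39. The log2 difference of library 2 from library 1 was 0.88 for ZFAS1, 0.74 for GAS5, 0.56 for SNHG1, 0.54 for EPB41L4A-AS1 and 0.14 for SNHG12, so 4 of the 5 exceeded 0.5, where 19.8% of all genes did, as did 12.2% of those at 5 CPM or more. Among the 22 other snoRNA host genes tested, 18 were higher in library 2 and 9 by over 0.5, with a median of 0.39 beside 0.00 for all genes. Of all 4087 long noncoding genes tested, 59.2% were higher in library 2 and 31.4% by over 0.5, with a median of 0.16. Of the 13 other microRNA hosts tested, 8 were higher in library 2 and 5 by over 0.5, with a median of 0.35. Of the 74 ribosomal protein genes 68 were higher in library 2, though 7 by over 0.5, with a median of 0.26. H19 and MIR205HG went the other way, at -1.03 and -0.74. This gap is a difference between libraries of the same label. The fold changes against scramble were smaller than this gap for GAS5, SNHG1, ZFAS1 and EPB41L4A-AS1.

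**Figure D5:**
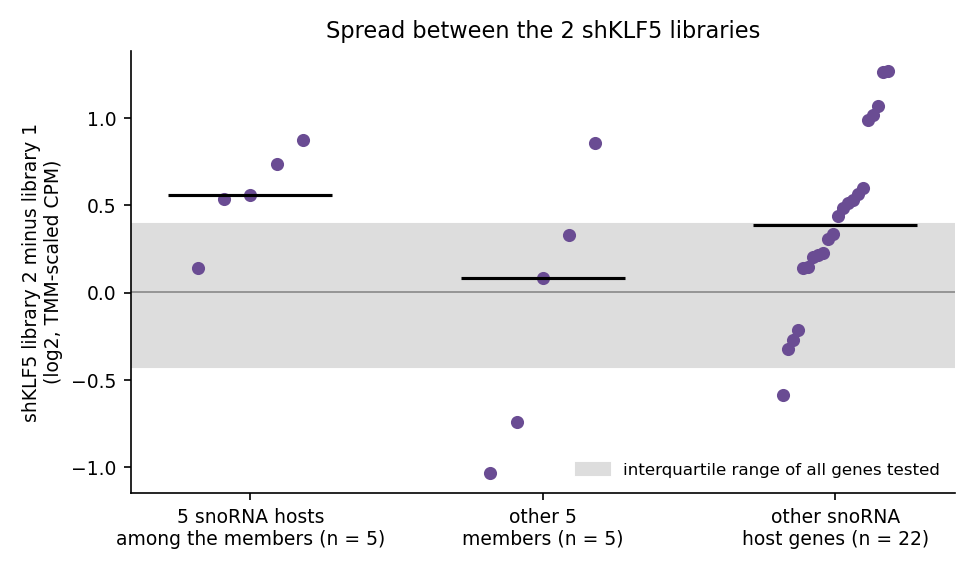
Log2 difference between shKLF5 library 2 and library 1 in TMM-scaled CPM, each point a gene and each bar the median of its group; the grey band is the interquartile range of all genes tested. Of the 5 snoRNA hosts 4 lie above the band, as does NEAT1 (0.85), and H19 (-1.03) and MIR205HG (-0.74) lie below it.

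The other host genes, some of them protein-coding, gave a mixed picture against scramble. Of 24 other snoRNA host genes listed, 22 were tested, 0 were called, 9 were lower in both shKLF5 libraries and 2 higher in both, and the median log2 fold change was -0.10, which became 0.33 under library size alone. SNHG3 had 1982, 1236 and 1394 counts, at a log2 fold change of -1.0 (SE 0.35), SNHG4 had 849, 602 and 504 and -1.03 (SE 0.38), and SNHG19 stood at -1.15 (SE 0.51). SNHG14, the long transcript of the imprinted locus of SNRPN, stood at 1.17 (SE 0.72) with 10, 34 and 26 counts. Of 16 other microRNA hosts, 13 were tested, 0 called, 6 lower in both and 1 higher in both. MIR17HG, precursor of the growth-promoting miR-17-92 cluster, had 407, 208 and 125 counts and stood at -1.70 (SE 0.48). MIR210HG, whose microRNA is induced by hypoxia, had 779, 529 and 218 counts and stood at -1.48 (SE 0.53), MIR200CHG, host of epithelial microRNAs, at -1.30 (SE 0.64) with 29, 13 and 18 counts, and MIR4435-2HG at 0.73 (SE 0.44). Among 15 further long noncoding RNAs tested, 5 were lower and 8 higher in both and 0 called. TINCR, an RNA of keratinocyte differentiation, had 203, 135 and 132 counts (-1.01, SE 0.47), LINC01503 had 300, 662 and 1207 (1.24, SE 0.51), LINC-PINT, a p53-responsive RNA, had 71, 195 and 374 (1.60, SE 0.61), and MEG3, an imprinted RNA, had 2, 12 and 13. Of all 4087 long noncoding genes tested, 22.6% lay below scramble in both libraries and 49.4% above it, and the median was 0.35. TINCR is not among these 4087, since GENCODE 29 types it as protein-coding.

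Genes for proteins that act with these RNAs gave 0 calls, and their counts are read beside the 50.8% of genes at 5 CPM or more that were lower in both. Of 12 genes for snoRNA-binding proteins 9 lay below scramble in both shKLF5 libraries, 0 above it in both and 0 were called, and the median log2 fold change was -0.28. NOP56, of the box C/D particle, had 4487, 3434 and 3659 counts (-0.75, SE 0.34), FBL, the methyltransferase fibrillarin, 1898, 1761 and 1794 (-0.50, SE 0.35), and DKC1, the pseudouridine synthase dyskerin, 3091, 2469 and 3145 (-0.55, SE 0.36). Of 14 nonsense-mediated decay factors 8 lay below scramble in both and 2 above it, with 0 called and a median of -0.16. UPF2, a core factor, had 1322, 1559 and 831 counts (-0.56, SE 0.44), SMG6, the endonuclease of the pathway, 963, 976 and 711 (-0.60, SE 0.39), UPF3A stood at -0.52 (SE 0.37) and EIF4A3, of the exon junction complex, at -0.49 (SE 0.35). Of 13 microRNA processing genes 7 were lower and 3 higher in both, 0 called, among them DGCR8, the partner of DROSHA, at -0.54 (SE 0.34), and AGO2, which carries mature microRNAs, at 0.53 (SE 0.38). Of the 74 ribosomal protein genes, classic TOP mRNAs, 57 lay below scramble in both, 2 above it and 0 were called (median -0.23), and of 5 elongation factor genes with TOP mRNAs 3 lay below it, 0 above it and 0 were called (median -0.38). The direction of these medians depends on the scaling. Under library size alone those of the snoRNA-binding proteins, decay factors, microRNA processing genes and elongation factors were 0.14, 0.27, 0.24 and 0.05, each below the median of all genes, which was 0.47 there.

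On the TPM scale, which has no TMM correction, all 5 snoRNA hosts were higher in both shKLF5 libraries than in scramble, where 62.0% of 15726 genes with a mean of at least 1 TPM were, and MIR205HG, MALAT1 and H19 were lower in both, where 12.5% were. ZFAS1 had 43.4 TPM in scramble against 83.1 ± 30.7 TPM (SD, n = 2), EPB41L4A-AS1 9.37 against 28.7 ± 12.2, and GAS5 177.7 against 240.5 ± 86.3. With limma on log2(TPM + 1) the difference of EPB41L4A-AS1 was 1.45 with an adjusted p of 0.597. H19, MIR205HG and MALAT1 thus lay below scramble in both libraries on both scales. For MALAT1 this was only just so by TPM in library 1, at 120.5 against 122.9. In library 1 the snoRNA hosts lay below scramble after TMM scaling, ZFAS1 only just (log2 value -0.023), and above it in TPM. In library 2 SNHG12 alone changed sides with the scale, and the other snoRNA hosts lay above scramble on both.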

How the data were processed

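RNA of TE5 cells was measured in 3 libraries made, per the labels, from total RNA with a TruSeq kit and sequenced on a HiSeq. Each deposited table is a kallisto abundance table, per the file headers. Its estimated counts, deposited by the authors, are reads divided among transcripts, not whole and not normalised, and its deposited TPM values are those counts per effective length, scaled to a common sum. kallisto, DESeq2 and hg19 are named in the submitters' processing notes, without versions or roles. No source used here gives the transcript set or strand use. The tables hold no coordinates; those printed are from GENCODE 29 and RefSeq on GRCh38.

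Of 196354 transcripts 92.6% matched GENCODE 29 by identifier, 93.2% of these with the same length; for the members 86 of 105 had the same length. The unmatched held 3.05% to 3.42% of counts and were left out. Counts were summed over 52992 genes, rounded, filtered with filterByExpr, scaled by TMM (factors 0.82, 1.11 and 1.1 for scramble and shKLF5 libraries 1 and 2) and tested with edgeR 4.0.16 (quasi-likelihood F test, legacy = FALSE, R 4.3.3) with Benjamini-Hochberg adjustment over 20629 genes at 0.05. There was 1 residual degree of freedom beside a median prior of 6.86 from all genes, so the variance of each gene leans mostly on all genes. The scramble library is assumed to vary as the others do. SE is the log2 fold change over the root of F, and intervals are at 95%. For each shKLF5 library alone, log2 values rest on a prior count of 2, with no test. Transcript classes follow GENCODE 29 types. The code was tested on simulated data. Alternatives used DESeq2 1.42.0, limma 3.58.1 (mean TPM of at least 0.5; pseudocounts 1 and 0.1) and the settings of the closing section. Members, lists and tests were chosen with earlier results of these data known. All members are described, and from each list up to 4 genes with the smallest p are named, with the members' neighbours and KLF5. Some genes that this rule would name are not reported here.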

Additional observations from a re-analysis of the deposited data

How the results depend on the processing

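With 1 scramble library and 1 residual degree of freedom, no member passed a test in any fit, and a value that keeps its direction is not thereby shown to differ. Genes called numbered 21 with edgeR's legacy fit, 116 with DESeq2 and 2 without mitochondrial genes, in place of 0, none of them members. H19, MIR205HG, MALAT1 and NEAT1 were lower in every fit that kept them, and ZFAS1 was higher. Genes at a mean of 5 CPM or more left out H19 and MIR31HG. Leaving out each shKLF5 library in turn gave -0.546 to 0.19 for GAS5, -0.426 to 0.133 for SNHG1, -0.468 to 0.07 for EPB41L4A-AS1 and -0.023 to 0.854 for ZFAS1, with the higher value without library 1. With library size alone all genes had a median of 0.47 against 0.04, and MIR31HG turned to 0.092, GAS5 to 0.296, SNHG1 to 0.308, SNHG12 to 0.023 and EPB41L4A-AS1 to 0.254, each still below that median. With limma on log2(TPM + 1) these 5 were 0.076, 0.387, 0.339, 0.139 and 1.451, and with a pseudocount of 0.1 they were 0.091, 0.388, 0.341, 0.144 and 1.534. At a mean CPM of at least 5, GAS5 was 0.051, SNHG1 0.063 and EPB41L4A-AS1 0.008, and length-scaled counts put EPB41L4A-AS1 at 1.16. Members lower in both libraries numbered 3 in place of 6 under library size alone and by TPM. Members higher in both numbered 2 under library size alone, 1 with length-scaled counts, 1 without mitochondrial genes and 5 by TPM, in place of 0. Medians turned under library size alone for other snoRNA hosts (0.333), other microRNA hosts (0.276), paraspeckle proteins (0.008), decay factors (0.269), snoRNP proteins (0.144), microRNA processing (0.242) and elongation factors (0.053), at a mean CPM of at least 5 for other snoRNA hosts (0.015), other microRNA hosts (0.028) and decay factors (0.017), and with no filter for neighbour genes (-0.022). By TPM in place of counts, the mean change in share was -49.57 points for the long EPB41L4A-AS1 transcript, -0.91 for that of NEAT1 and 1.86 for retained intron MIR205HG. By counts, that of MIR205HG was -1.57, with -3.80 to 0.66 when each shKLF5 library was left out in turn. By TPM, the SNHG1 share in library 1 lay above scramble (73.54% against 72.76%). The cause of these differences was not tested. No paired analysis was possible because scramble has 1 library and carries no number.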
